A study of Mus musculus with 2 samples.

Results

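*Cspg4*, the gene whose promoter drives the Cre recombinase of this study, was followed as 1 gene of 32285 in the count tables through every cell class that marker genes could set apart. The gene was chosen by its own measured counts in these libraries, so its levels are given here as a description and no test is made on them. The data are 1 single-cell RNA library per condition from Lewis lung carcinoma (LLC) tumors, a mouse lung cancer line grown under the skin of C57BL/6 mice, with cells of 3 tumors pooled in each. The sGC Ctr library (labelled CT) came from Gucy1b1 flox/flox hosts without Cre, and the sGC ∆PC library (labelled KO) from hosts labelled Cspg4-CreERT2::Gucyc1b1 flox/flox. Both groups of hosts carry the floxed *Gucy1b1* alleles. Each was given tamoxifen 5 times when 4 weeks old, received the LLC cells at 8 weeks and was dissected 2 weeks later.

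*Cspg4* encodes NG2, a chondroitin sulfate proteoglycan that spans the cell membrane. NG2 is a standard marker of pericytes, the mural cells of small vessels, and is also known from smooth muscle, glial progenitors, melanocytes and young cartilage. Its large extracellular part binds collagen VI and growth factors, proteases can shed it, and its short tail binds PDZ domain proteins inside the cell. CreERT2 is a Cre that enters the nucleus only with tamoxifen, and once it has cut a floxed allele the loss is permanent. The question addressed is in which cells of the tumor the gene behind the driver was transcribed, and which of these cells also transcribed *Gucy1b1*, the β1 subunit of soluble guanylate cyclase (sGC) that the Cre is meant to remove.

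The model sets limits on this reading. The study's methods call the driver a knock-in, so the hosts of the sGC ∆PC library carry Cre at the *Cspg4* locus and the sGC Ctr hosts do not, and the effect of that allele on *Cspg4* counts cannot be told apart from any other difference between the 2 libraries. LLC cells were inoculated and carry neither the Cre nor the floxed alleles. Levels in a dissected tumor are not the levels at the time of tamoxifen, and no transcript of the Cre itself was measured here. The study followed the Cre in another way, with a tdTomato reporter that labels cells in which it has acted. By staining, it reported the pericyte marker Desmin in all labelled cells of LLC tumors. It found no labelled pericyte with the fibroblast marker Podoplanin. The levels below are thus of the driver gene's RNA and do not show where the Cre acted. Single libraries also leave the spread between tumors unseen, so every interval below is a 95% interval for counting error only.

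The gene lies on chromosome 9 of mm10 (GRCm38), plus strand, from 56865033 to 56899870, where GENCODE gives its coding transcript 10 exons. The 3′ protocol counts molecules near the end of the transcript, in the last exon, which starts at 56897056 and holds the 3′ untranslated region. Transcripts of the gene that share this end cannot be separated. No annotated gene overlaps it: the upstream neighbor *Odf3l1* lies 353 bases before it on the other strand, and *Gm47237* starts 3590 bases after it. The 179 bases before the annotated start are shown because they are the promoter-proximal stretch under discussion (RefSeq promoter table, GRCm38.p6, plus strand, chr9:56864854-56865032), with matches to the GC box (GGGCGG, read on both strands) in capitals.
Cspg4 promoter: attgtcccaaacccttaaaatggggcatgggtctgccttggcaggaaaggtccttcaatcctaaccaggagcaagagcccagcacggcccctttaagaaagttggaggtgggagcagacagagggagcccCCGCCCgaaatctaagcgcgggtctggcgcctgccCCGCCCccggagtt
The stretch holds 2 GC boxes, at positions 131 and 166, a motif found in 20.9% of 32851 promoter windows of the same length. It holds no TATAAA (8.34% of windows), CCAAT (24.8%), CANNTG (55.3%), TGANTCA (4.89%) or TGGGAA (16.3%), each searched on both strands, and its GC content of 60.3% compares with a median of 51.4% over all windows. These are matches of letters in 1 window and say nothing of which factor binds.

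After filtering, 12220 sGC Ctr and 22498 sGC ∆PC cells remained, with medians of 35776.5 and 8685 UMIs (unique molecular identifiers, each counting 1 captured RNA molecule). *Cspg4* gave 2113 UMIs in 863 sGC Ctr cells and 1240 UMIs in 718 sGC ∆PC cells, and no cell held more than 13. Cells entered a class when enough markers of 1 class were present, and *Cspg4* was no marker of any class. A cell that passed a host class and the cancer cell gate together was kept apart as that class with cancer RNA. Levels are in CPM, the summed UMIs of the gene divided by all UMIs of the class and scaled to 1e6.

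The targeted gene was lower in the sGC ∆PC pericytes, but other genes were lower there too. *Gucy1b1* gave 58 UMIs (121 CPM) in 40 sGC Ctr pericytes and 11 UMIs (26.8 CPM) in 51 sGC ∆PC pericytes, a log2 ratio of -2.17 (-3.25 to -1.23). The mean share of cancer-cell RNA was 12.4% and 31.0% in these cells, and in those with a share under 10% the ratio was -1.31 (-2.60 to -0.23). *Gucy1a1*, the partner subunit of sGC, had -0.95 (-1.45 to -0.48) in all gated pericytes and -0.11 (-0.71 to 0.46) in those under 10%. The muscle gene *Myh11* had -2.06 (-2.64 to -1.52) and -1.35 (-2.03 to -0.72), and the pericyte marker *Pdgfrb* -0.22 (-0.46 to 0.02) and 0.30 (-0.01 to 0.60). A lower level was thus not particular to *Gucy1b1*. Which exons are floxed is not given in the sources used here, so a 3′ count need not show the deletion in every cell. Cells with UMIs of both *Cspg4* and *Gucy1b1* numbered 20 of 40 sGC Ctr pericytes and 3 of 51 sGC ∆PC pericytes. *Gucy1b1* was found in 69.0% of sGC Ctr pericytes with *Cspg4* and 36.4% of those without, at medians of 12523 and 8311 UMIs. In the sGC ∆PC library it was found in 25% and 10.3%, at medians of 11753.5 and 3951 UMIs.

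Macrophages, not pericytes, held most *Cspg4* transcripts in both libraries. The 2832 macrophages of the sGC Ctr library carried 1550 of the *Cspg4* UMIs (73.4%), and the 40 pericytes carried 80 (3.79%). In the sGC ∆PC library, 4679 macrophages carried 803 (64.8%) and 51 pericytes carried 23 (1.85%). Per molecule of RNA the order of the gated classes was the other way round. Pericytes stood at 167 CPM (132 to 208) in the sGC Ctr library and 56.1 CPM (35.6 to 84.2) in the sGC ∆PC library. Macrophages stood at 46.9 CPM (44.6 to 49.3) and 24.0 CPM (22.4 to 25.7). The intervals of the 2 gated classes did not overlap within either library. This order did not hold between clusters in the sGC ∆PC library, where the cluster of pericytes stood at 23.4 CPM (17.2 to 31.0) and the largest macrophage cluster at 41.8 CPM (38.7 to 45.2). In the sGC Ctr library the intervals of these clusters overlapped, at 71.5 CPM (57.3 to 88.0) for pericytes and 62.2 CPM (58.7 to 65.8) for macrophages.

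Every other class that passed a single gate was lower, except that the 12 and 10 natural killer cells, with no *Cspg4* UMI, were too few to place (upper ends 68.8 and 69.6 CPM). Fibroblasts followed at 6.41 CPM (3.86 to 10.0; 19 UMIs in 129 cells) and 2.96 CPM (1.28 to 5.83; 8 UMIs in 258 cells). Dendritic cells had 1 UMI in each library, too few to place them above or below fibroblasts. Cancer cells stood at 0.529 CPM (211 UMIs in 6888 cells) and 0.611 CPM (200 UMIs in 10955 cells). Endothelial cells had no *Cspg4* UMI in 65 and 81 cells, which allows up to 1.82 and 2.32 CPM by the limit used here for a count of 0, the level that 3 counts would give. Granulocytes had 0 UMIs in 290 cells and 1 in 346, and T cells had 0 in 91 and 0 in 102, so counts in the classes used as a background were at or near 0. Their upper ends were 5.84 and 7.04 CPM in granulocytes and 10.5 and 8.65 CPM in T cells. These classes thus do not place fibroblasts or cancer cells above a background.

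**Figure D1:**
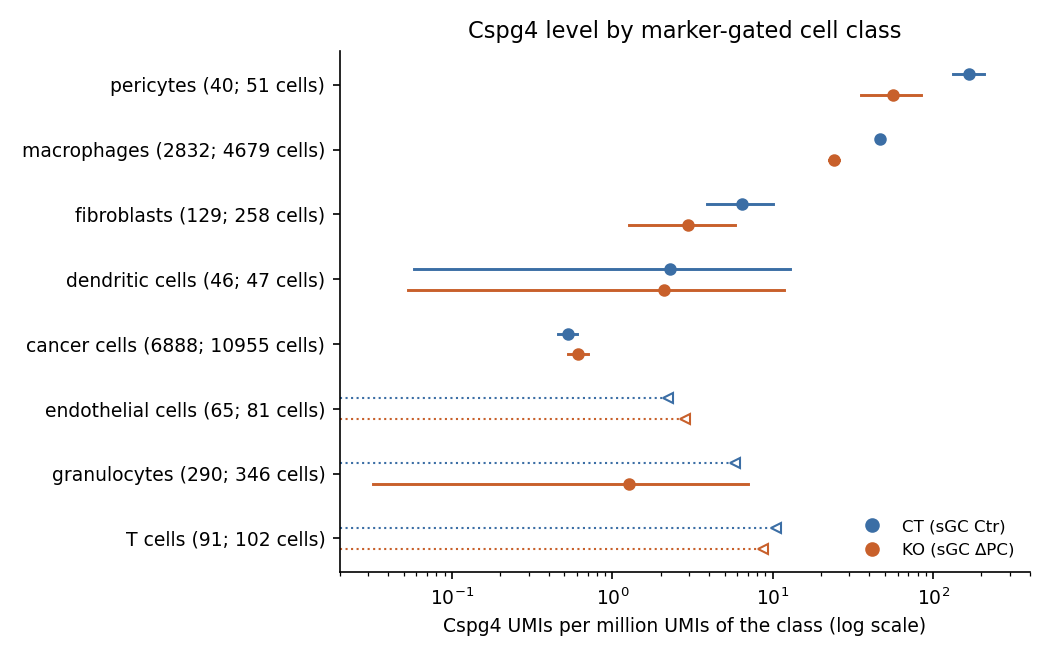
Cspg4 level by marker-gated class, in CPM on a log axis, with cell numbers for the sGC Ctr and sGC ∆PC libraries. Points are levels, lines are 95% Poisson intervals (narrower than the points in macrophages), and open triangles are the upper ends of these intervals where no UMI was counted; pericytes at 167 and 56.1 and macrophages at 46.9 and 24.0 are the points farthest to the right, while the upper ends for classes of few cells mark only how little was sampled.

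Shares of cells with a *Cspg4* UMI gave the same order. They were 72.5% of pericytes (56.1 to 85.4) and 19.6% of macrophages (18.2 to 21.1) in the sGC Ctr library, and 23.5% (12.8 to 37.5) and 8.10% (7.33 to 8.92) in the sGC ∆PC library. Granulocytes, which should lack the gene, gave 0 of 290 cells, which by the same limit of 3 counts allows a share of cells with a UMI of up to 1.03%, and 0.289% of 346 cells, at medians of 2087.5 and 2258.5 UMIs against 10319.5 and 4906 in macrophages. Since depth differs, each cell was also thinned to 2000 UMIs, and 32 sGC Ctr and 1266 sGC ∆PC macrophages below that depth were left out. The thinned shares were 28.9% and 10.5% in pericytes, 6.68% and 3.81% in macrophages, and 0 and 0.481% in granulocytes. In cancer cells 2.41% and 1.58% of cells had a UMI, but only 0.0873% and 0.129% did once thinned. Granulocytes set no close limit on this, since their thinned shares rest on 0 and 1 cells (intervals 0 to 2.28% and 0.0122% to 2.65%).

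The *Cspg4* UMIs of macrophages were concentrated in few cells. In the sGC Ctr library 2276 macrophages had none, 201 had 1, 255 had 2 to 4 and 100 had 5 or more, and these last 100 cells held 652 UMIs (42.1% of the class). In the sGC ∆PC library 4300 had none, 191 had 1, 161 had 2 to 4 and 27 had 5 or more. Of the cancer cells with *Cspg4*, 145 of 166 held a single UMI in the sGC Ctr library and 154 of 173 in the sGC ∆PC library. In the sGC Ctr library 17 cancer cells with 2 to 4 UMIs held 46 UMIs and 4 with 5 or more held 20. In the sGC ∆PC library 19 with 2 to 4 held 46. At so low a level most positive cells hold a single UMI, so this is not a contrast with macrophages.

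The macrophage gate itself asks for macrophage markers and sets apart cells that also pass the pericyte gate, so the next values describe the gated cells and how little pericyte RNA they held. Of the 355 sGC Ctr macrophages with 2 or more *Cspg4* UMIs, 98.3% had a UMI of *C1qa* (a complement subunit), 98.3% of *Csf1r* (the receptor for macrophage colony-stimulating factor) and 92.4% of *Adgre1* (which encodes the macrophage antigen F4/80). Only 1.41% had a UMI of *Rgs5*, a regulator of G protein signaling that marks pericytes, against 97.5% of the pericytes. *Notch3* and *Higd1b*, both pericyte markers, had 0 UMIs in these 355 cells. Over the list of 10 pericyte markers the summed level was 6.24 CPM, which is 0.0575% of the level in pericytes, and 3 markers were at 0. In the 188 such cells of the sGC ∆PC library the shares were 99.5% for *C1qa*, 96.3% for *Csf1r* and 86.7% for *Adgre1*, and the pericyte markers stood at 5.05 CPM, 0.0625% of the pericyte level. Over all macrophages the share of pericyte-marker RNA, 0.0800% and 0.183% of the pericyte level, corresponds to 4.42 *Cspg4* UMIs in the sGC Ctr library and 3.43 in the sGC ∆PC library, against the 1550 and 803 counted.

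The same reckoning was made for the classes with low levels. The level of macrophage and pericyte markers in a class, as a share of their level in the class they mark, was multiplied by the *Cspg4* level of that class. For cancer cells this gives 198 *Cspg4* UMIs in the sGC Ctr library and 196 in the sGC ∆PC library, beside 211 and 200 counted (counting intervals 183 to 241 and 173 to 230). Pericyte markers give 41.9 and 21.8 of these UMIs. Of their level in cancer cells, 6.83 and 9.58 CPM, the marker *Pdgfrb* alone made up 4.31 and 4.81 CPM. Whether cancer cells transcribe *Pdgfrb* themselves was not tested, and if they do, the figure for cancer cells is too high. Macrophage markers alone give 156 and 174 UMIs, and the sGC Ctr value lies below its counting interval. The place of sGC Ctr cancer cells thus depends on the pericyte part, and the reckoning was not repeated without *Pdgfrb*. For fibroblasts it gives 30.3 and 12.8, beside 19 and 8 counted. It gives 6.40 and 3.76 for granulocytes, beside 0 and 1, where some macrophage markers are genes of all myeloid cells, and 5.10 and 1.63 for endothelial cells, beside 0 and 0. With all markers used, the counting interval lay above this figure in 1 case among all cells other than gated pericytes and macrophages. These were the sGC Ctr cells that passed no gate, which held 92 UMIs (74.2 to 113), where the reckoning gives 71.8. It lay below the figure in 5 sGC Ctr cases, namely fibroblasts, granulocytes, endothelial cells, pericytes with cancer RNA and cells with more than 1 host gate, so the reckoning is too high for these. Leaving out the cells with the highest 10% of doublet scores took sGC Ctr cancer cells from 0.529 to 0.335 CPM and sGC ∆PC cancer cells from 0.611 to 0.510 CPM.

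**Figure D2:**
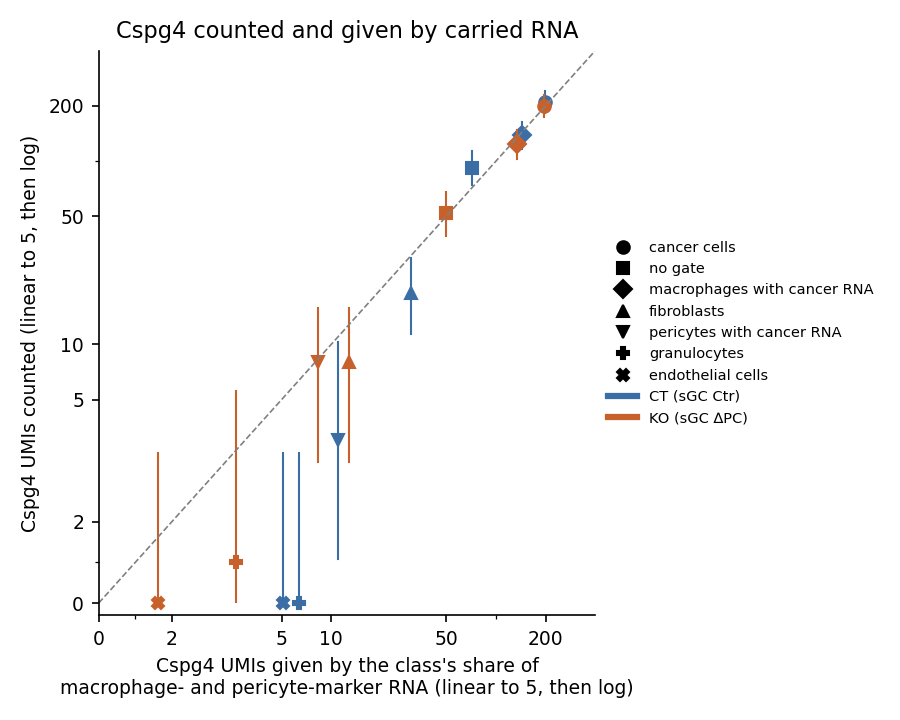
Counted Cspg4 UMIs of each class (vertical, with 95% counting intervals) against the UMIs that its share of macrophage- and pericyte-marker RNA gives (horizontal), both axes linear to 5 and then logarithmic, with the dashed line where the values are equal. Cancer cells at 211 against 198 and 200 against 196 lie near the line, a place that depends in part on the marker Pdgfrb. Fibroblasts, granulocytes and endothelial cells lie below it in the sGC Ctr library.

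Cells with markers of further host types, some of them types known to express NG2, were few in both libraries. Cells with at least 2 of 6 markers of glia and Schwann cells numbered 5 in each library and held 1 and 0 *Cspg4* UMIs. No cell had 2 melanocyte markers. Cells with at least 2 skeletal muscle markers numbered 9 and 7 (0 and 3 *Cspg4* UMIs), those with 2 cartilage markers 5 and 8 (no *Cspg4* UMI) and those with 2 keratinocyte markers 19 and 20 (4 and 2 *Cspg4* UMIs). At these numbers of cells, no level can be given for them.

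Within macrophages the level differed between states set by marker genes. In the sGC Ctr library it was 78.2 CPM in macrophages that passed no state and 59.6 CPM in those with G2/M genes. It was 52.2 CPM in Gpnmb macrophages (scored on *Gpnmb*, *Mmp12*, *Hmox1*, *Arg1* and *Spp1* together) and 35.0 CPM in resident-like macrophages (*Mrc1*, *Folr2*, *Lyve1*). It was 14.7 CPM in osteoclast-like macrophages (*Ctsk*, *Acp5*), 7.28 CPM in MHC class II macrophages and 5.69 CPM in macrophages with monocyte genes (*Ly6c2*, *Plac8*, *Ccr2*). In the sGC ∆PC library the values were 38.0, 33.0, 33.1, 20.5, 6.56, 5.87 and 2.43 CPM in the same order. Intervals of macrophages without a state, with G2/M genes, Gpnmb and resident-like macrophages all lay above those of MHC class II macrophages and monocytes, in both libraries. G2/M and Gpnmb macrophages overlapped each other, as did MHC class II macrophages and monocytes. In the sGC ∆PC library macrophages without a state (34.3 to 42.0) overlapped G2/M (26.7 to 40.4) and Gpnmb macrophages (28.5 to 38.2). Osteoclast-like macrophages (6.35 to 29.0 and 0.795 to 23.7) overlapped MHC class II macrophages and monocytes in both libraries, and resident-like macrophages (16.4 to 25.5) in the sGC ∆PC library. A state is a range on a score: 666 sGC Ctr and 884 sGC ∆PC macrophages lay near a limit.

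**Figure D3:**
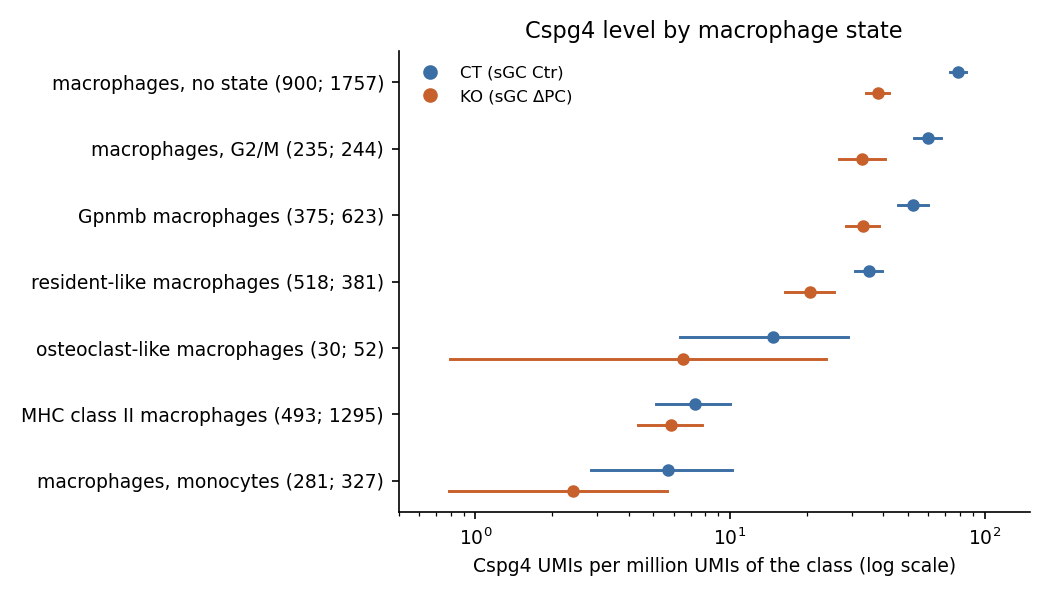
Cspg4 level by macrophage state in CPM on a log axis, with cell numbers for the sGC Ctr and sGC ∆PC libraries and 95% Poisson intervals. MHC class II macrophages (7.28 and 5.87) and macrophages with monocyte genes (5.69 and 2.43) lie to the left of the states at 20.5 or more.

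Leiden clusters computed without *Cspg4* matched the gated states only in part. The largest macrophage cluster (*Fcrls*, *Cbr2*, *Lyve1*, *Folr2*, *Mrc1*) stood at 62.2 CPM in 1572 sGC Ctr cells and 41.8 CPM in 1216 sGC ∆PC cells. Its leading genes include resident-like markers, but the gated resident-like macrophages stood lower, at 35.0 and 20.5 CPM. A smaller one (*Syce2*, *Slamf9*, *Clec12a*), in which *Cspg4* itself was among the 10 leading genes, stood at 60.7 and 30.0 CPM. The cluster led by monocyte genes (*Chil3*, *Thbs1*, *Ly6c2*, *Plac8*) stood at 1.20 CPM in 1007 cells and 1.04 CPM in 1087 cells. A cluster led by the mast cell protease genes *Mcpt4* and *Cma1*, followed by MHC class II genes such as *H2-Eb1* and *H2-Aa*, stood at 15.2 and 15.5 CPM. It held 144 sGC Ctr but 2081 sGC ∆PC cells, at medians of 3790 and 1548 UMIs. Its score for the MHC class II markers, 64.4, was below the 81.8 of the cluster led by monocyte genes. By gate, MHC class II macrophages stood at 7.28 and 5.87 CPM. A small cluster led by *Cd209b*, *Cd163* and *Lyve1* had no *Cspg4* UMI in 1 sGC Ctr and 34 sGC ∆PC cells (upper end 37.4 CPM in the latter).

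Genes that went with *Cspg4* among macrophages were read from cells with at least 5000 UMIs, comparing cells with 2 or more *Cspg4* UMIs (353 and 181) with cells without any (2023 and 2004). The cells were chosen on *Cspg4*, so these are descriptions. Upwards, only genes with at least 100 UMIs in the cells with *Cspg4* were ranked. Of these, the 10 with the largest difference in both libraries were *Olfml3*, *Gm16104*, *Col14a1*, *Pls3*, *Pmepa1*, *Cd109*, *Pdgfa*, *Anln*, *Fxyd2* and *Car5b*. *Olfml3*, a secreted olfactomedin-like protein, stood at 87.2 against 32.3 CPM in the sGC Ctr library and at 83.9 against 23.2 CPM in the sGC ∆PC library. *Col14a1*, a fibril-associated collagen, stood at 105 against 44.3 CPM and 94.4 against 27.0 CPM. *Pdgfa*, which encodes the growth factor PDGF-A, stood at 142 against 67.8 CPM and 151 against 56.1 CPM. *Pmepa1*, an inhibitor of TGF-β signaling, stood at 608 against 261 CPM and 658 against 224 CPM.

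Downwards, only genes with at least 2000 UMIs in the cells without *Cspg4* were ranked, so genes of lower level with larger differences, such as *Chil3* and *Ciita*, are not among them. The 10 ranked genes with the largest difference were the MHC class II genes *H2-Eb1*, *H2-Ab1*, *H2-Aa* and *Cd74*, the monocyte gene *Plac8*, the chemokines *Ccl8* and *Cxcl9*, the cytokine *Il1b*, the matrix protein gene *Thbs1* and the elastase gene *Mmp12*. *Plac8* stood at 4.73 against 210 CPM in the sGC Ctr library and 14.3 against 224 CPM in the sGC ∆PC library. *H2-Aa* stood at 75.5 against 809 CPM and 231 against 1162 CPM. Genes that mark macrophages or their states also differed to various degrees. On the log2 scale *C1qa* differed by 0.23 in the sGC Ctr and 0.41 in the sGC ∆PC library, *Csf1r* by 0.02 and 0.23 and *Adgre1* by 0.40 and 0.72. *Fcer1g* differed by -0.08 and -0.01 and *Tyrobp* by -0.04 and 0.08. Of the resident-like markers, *Mrc1* differed by -0.88 and -0.98, *Lyve1* by -2.09 and -1.36, *Cd163* by -2.57 and -1.37 and *Selenop* by -0.67 and -0.43. *Ccl8* differed by -3.39 and -2.69, but *Folr2* was higher, by 0.44 and 0.73. Most markers of the Gpnmb state were lower in these cells: *Gpnmb* by -1.45 and -1.56, *Mmp12* by -2.70 and -2.56, *Hmox1* by -1.22 and -0.65 and *Arg1* by -0.16 and -0.21. Only *Spp1* was higher, by 0.34 and 0.68, so the level of the Gpnmb state does not mean that *Cspg4* went with *Gpnmb*. The median depth was 13342 against 10391 UMIs in the sGC Ctr library and 15873 against 9718.5 in the sGC ∆PC library, and its part in these differences was not tested.

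Across 46 sums of cells (each class or state in each library), genes were compared with *Cspg4* by their level on a log2(CPM + 1) scale. Only 10775 genes were ranked, of 23372 with a UMI in either library. A gene not counted in the pericytes of each library was left out, such as *Adgre1* (0 UMIs in sGC Ctr pericytes). Genes more like *Cspg4* may thus be missing. Among the ranked genes, the 10 most like *Cspg4* were also not pericyte markers. They were *Nr1h3* (Pearson r = 0.873), *Slc13a3* (0.849), *Stard8* (0.835), *Tmem86a* (0.824), *Flna* (0.824), *Stom* (0.808), *Prxl2b* (0.807), *1700003F12Rik* (0.806), *Fxyd2* (0.802) and *Lamtor1* (0.799). *Nr1h3* encodes the liver X receptor α, a nuclear receptor for oxysterols, *Slc13a3* a dicarboxylate transporter, *Flna* the actin cross-linker filamin A and *Lamtor1* an anchor of mTORC1 at the lysosome. The pericyte markers had lower values, from 0.626 for *Cox4i2* (rank 266 of 10775 genes) to 0.165 for *Pdgfrb* (rank 4739), and *Gucy1b1* had 0.496 (rank 910). The macrophage genes *Csf1r* and *C1qa* had 0.673 and 0.642. The sums share 2 libraries and differ in depth, and 14 of them are macrophage states. The pericyte markers, *Csf1r* and *C1qa* are genes of the gates that made these sums, while *Cspg4* is not. Their values are thus partly set by the gates.

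In the other gated classes the driver and its target were found together in 0 sGC Ctr and 2 sGC ∆PC cells, 1 of them a fibroblast and 1 a macrophage. Among cells outside these classes, both were found in 2 and 1 pericytes with cancer RNA, 2 and 2 cells with more than 1 host gate, and 1 and 0 cells without a gate. Macrophages had 2 *Gucy1b1* UMIs in the sGC Ctr library and 10 in the sGC ∆PC library (0.0605 and 0.299 CPM). The partner subunit *Gucy1a1* had 3 and 7 UMIs in macrophages, and *Gucy1a2* had none. Fibroblasts had 3 and 2 *Gucy1b1* UMIs, endothelial cells had 1 and 0, and cancer cells had 1 and 2. So the macrophages that held most of the *Cspg4* UMIs had *Gucy1b1* near 0 in both libraries.

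Between the libraries, *Cspg4* was lower in the sGC ∆PC library in pericytes and in macrophages. On the log2 scale, sGC ∆PC over sGC Ctr, the ratio was -1.57 in pericytes (-2.31 to -0.89) and -0.97 in macrophages (-1.09 to -0.84). In pericytes 81 of 2580 genes with at least 50 UMIs (3.14%) were lower by 2-fold or more, and in macrophages 43 of 12328 (0.349%). Genes at 2-fold or more higher made up 1.82% and 1.57%. The gene was chosen on these counts, so its place among them is not read as a result. In fibroblasts the log2 ratio was -1.12 (-2.52 to 0.14) and in cancer cells 0.21 (-0.08 to 0.49), both with intervals that include 0, but without the highest 10% of doublet scores the cancer cell ratio was 0.61 (0.25 to 0.97), and with clusters in place of gates it was -0.05 (-0.37 to 0.27).

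Cancer-cell RNA in the gated cells differed between the libraries. Its share, a cell's level of the cancer cell markers relative to the mean of cancer cells, averaged over cells 12.4% in sGC Ctr and 31.0% in sGC ∆PC pericytes, and 9.28% and 22.4% in macrophages. In pericytes with a share under 10% (30 and 15 cells), *Cspg4* stood at 167 and 104 CPM, and the log2 ratio shrank to -0.68 (-1.56 to 0.13). In the same cells *Myh11*, a smooth muscle myosin, had a ratio of -1.35 (-2.03 to -0.72), while *Rgs5* had 0.04 (-0.08 to 0.17), *Notch3* 0.09 (-0.36 to 0.53) and *Abcc9* 0.07 (-0.29 to 0.41). In macrophages with a share under 10% the *Cspg4* ratio was -0.75 (-0.91 to -0.60).

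Pericytes with at least 3 contractile markers, 22 and 12 cells, stood at 161 and 97.5 CPM (log2 ratio -0.72, -1.66 to 0.13). The 18 and 39 pericytes with fewer stood at 178 and 31.2 CPM (-2.51, -3.85 to -1.35). The 39 sGC ∆PC cells had a median of 3951 UMIs and a cancer-cell RNA share of 33.6%, against 8689.5 UMIs and 22.6% in the 18 sGC Ctr cells. The cluster that held 95% and 100% of the gated pericytes, a wider set of 52 and 238 cells whose summed markers also reached the cancer cell limits, stood at 71.5 and 23.4 CPM (-1.61, -2.15 to -1.09).

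By point value, *Cspg4* was lower in the sGC ∆PC library in each macrophage state, with counting intervals that all overlapped between the states. The log2 ratio was -1.04 in macrophages without a state (-1.22 to -0.86), -0.85 in those with G2/M genes (-1.21 to -0.51), -0.77 in resident-like (-1.15 to -0.41) and -0.66 in Gpnmb macrophages (-0.95 to -0.37). In MHC class II macrophages it was -0.31 (-0.95 to 0.35), in osteoclast-like macrophages -1.17 (-4.44 to 1.16) and in those with monocyte genes -1.23 (-3.11 to 0.41). All 7 values were below 0, and 4 of the 7 intervals excluded 0. Different clusters held the macrophages of the 2 libraries: the *Fcrls* cluster held 54.9% of the sGC Ctr but 25.3% of the sGC ∆PC macrophages. The *Mcpt4* cluster held 32.6% of the sGC ∆PC macrophages. Within the *Fcrls* cluster the ratio was -0.57 (-0.71 to -0.43), and within the *Mcpt4* cluster 0.04 (-0.95 to 1.17). It was -1.02 (-1.42 to -0.64) within the *Syce2* cluster, -0.20 (-1.82 to 1.41) within the monocyte cluster and -2.58 (-4.34 to -1.13) within a cluster led by interferon-response genes.

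The genes that went with *Cspg4* in macrophages were picked on it in these same cells, and their values are given as a description. Over all macrophages their log2 ratio between the libraries was -0.53 for *Olfml3*, -0.71 for *Col14a1*, -0.54 for *Fxyd2*, -0.30 for *Pmepa1* and -0.26 for *Pdgfa*, and 0.08 for *Car5b*. Of the 10 genes that went against it, *Thbs1* had 0.80, *H2-Eb1* 0.63 and *Plac8* 0.10, and *Ccl8* had -0.10.

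The other genes around NG2 were read from lists of ligands, proteases, partners and enzymes. Of 10 ligands and membrane partners, 7 had at least 50 UMIs in pericytes, with a median log2 ratio of -0.37 against -0.16 over all 2580 genes. Members are named by their UMIs in pericytes. *Col6a3*, a chain of the collagen VI that binds NG2, gave 1485 CPM in sGC Ctr and 973 CPM in sGC ∆PC pericytes, and *Col6a1* gave 643 and 498 CPM. *Itgb1*, the integrin β1 chain, gave 1085 and 715 CPM. In macrophages all 10 passed 50 UMIs and 3 were higher by 2-fold or more in the sGC ∆PC library (background 1.57%), namely *Col6a3* (3.66 and 11.3 CPM), *Plat* (2.33 and 5.05 CPM) and *Pdgfrb* (0.514 and 2.27 CPM). The macrophages' cancer-cell RNA share, 9.28% and 22.4%, moved with these, as did their pericyte-marker RNA share, 0.0800% and 0.183%. *Col6a3* stood at 1485 and 973 CPM in pericytes and 1157 and 1389 CPM in fibroblasts, against 10.0 and 12.9 CPM in cancer cells. The part of such RNA in these values was not tested.

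Of the proteases that shed NG2, *Mmp14*, *Adam10* and *Adam17* were present in both classes, while in pericytes *Mmp9* had 3 and 1 UMIs and *Mmp13* had none. *Mmp14*, a membrane metalloproteinase, gave 302 and 263 CPM in pericytes and 190 and 169 CPM in macrophages. *Adam10* and *Adam17*, membrane-bound sheddases, gave 102 and 104 CPM and 129 and 118 CPM in macrophages. Of 5 sheddases, 2 in pericytes and 5 in macrophages had 50 UMIs, too few to compare with the background. Among the cytoplasmic partners, the syntenin gene *Sdcbp* gave 138 and 122 CPM in pericytes and 382 and 353 CPM in macrophages. *Mpdz*, which encodes the PDZ protein MUPP1, gave 39.6 and 14.6 CPM in pericytes (19 and 6 UMIs) but 4 and 19 UMIs in all macrophages. *Grip1* had none in pericytes.

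Of 6 other core proteins that carry chondroitin sulfate, 1 in pericytes and 2 in macrophages had 50 UMIs. *Vcan*, the secreted proteoglycan versican, gave 60.5 and 82.9 CPM in pericytes and 86.1 and 121 CPM in macrophages. *Cspg5*, *Bcan*, *Ncan* and *Ptprz1* had no UMI in pericytes, and *Acan* had 3 and 0. Of 9 genes for the synthesis of the sugar chain, 1 in pericytes (*Chpf*, 48.0 and 75.6 CPM) and 8 in macrophages had 50 UMIs. *Csgalnact1*, an enzyme that starts the chain, had 17 and 4 UMIs in pericytes.

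Other mural genes whose promoters drive Cre lines were found in other places than *Cspg4*. In the sGC Ctr library pericytes held 84.3% of the UMIs of *Myh11*, 56.5% of *Notch3* (a Notch receptor of mural cells), 50.8% of *Tagln* (transgelin, an actin-binding protein), 48.3% of *Abcc9* (a subunit of potassium channels) and 46.5% of *Acta2* (smooth muscle actin), against 3.79% of *Cspg4*. Macrophages held at most 1.89% of the UMIs of each of these 5 genes. *Notch3*, *Abcc9* and *Pdgfrb* are markers of the pericyte gate, so their shares in pericytes and macrophages are partly set by the gate. *Cspg4*, *Myh11*, *Tagln* and *Acta2* are not among those markers. *Pdgfrb* was spread over cancer cells (62.7%), pericytes (12.5%) and fibroblasts (9.86%), *Tbx18* lay mostly in fibroblasts (52.4%), and *Nes* (91.2%) and *Gli1* (88.4%) mostly in cancer cells. Shares follow the number of cells in a class as well as its level. In the sGC ∆PC library pericytes held 21.9% of *Myh11*, 32.5% of *Notch3* and 24.1% of *Tagln*. Of the 10 genes, 7 had 50 UMIs in pericytes, and *Myh11* (346 and 82.9 CPM) and *Tagln* (1352 and 544 CPM) were lower by 2-fold or more in the sGC ∆PC library, where 3.14% of all pericyte genes were. The pericytes' cancer-cell RNA share, 12.4% and 31.0%, moved with these, and its part was not tested.

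**Figure D4:**
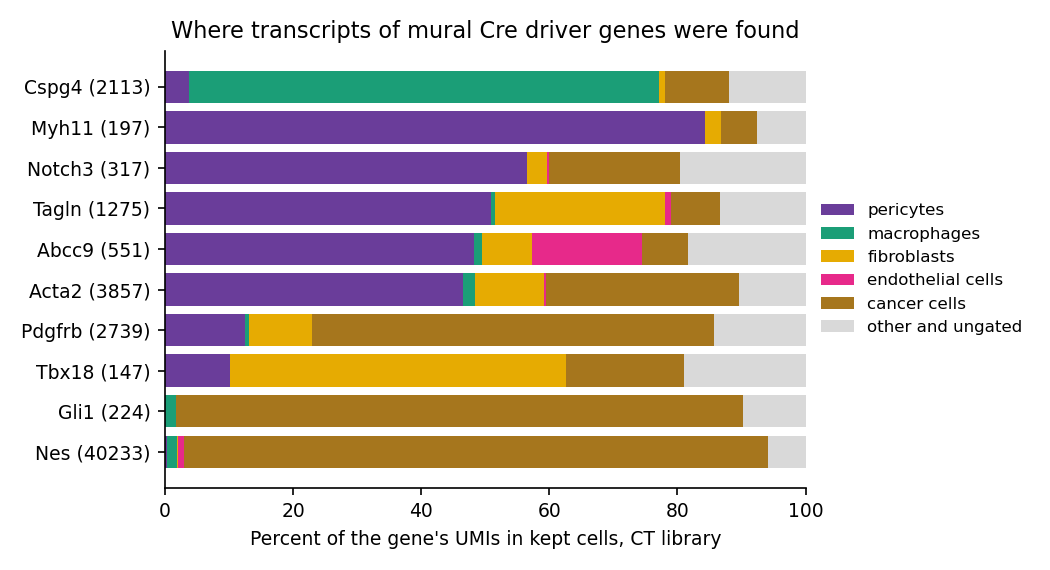
Share of each mural Cre driver gene's UMIs found in pericytes, macrophages, fibroblasts, endothelial cells and cancer cells of the sGC Ctr library, in percent, with the gene's total UMIs in brackets and the remainder in grey. Macrophages hold 73.4% of the Cspg4 UMIs, while pericytes hold 84.3% of Myh11 and cancer cells 91.2% of Nes. Notch3, Abcc9 and Pdgfrb are markers of the pericyte gate, which partly sets their shares.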

How the data were processed

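The authors sequenced the 2 libraries with a 10x 3′ chemistry and deposited UMI counts per gene and barcode, made with Cell Ranger 6.1.1 on mm10 per the labels. Computation used Python 3.11.15, numpy 2.4.6, scipy 1.17.1, scanpy 1.11.5 and leidenalg 0.10.2. Barcodes were kept (81.4% of 15007 and 87.8% of 25631) if mitochondrial genes took under 10% of UMIs and if the logs of the UMI total and gene number differed from the library's median by less than 3 scaled median absolute deviations. A class needed a minimum number of its markers and of marker UMIs per 10000: 4 of 10 markers and 10 UMIs for pericytes, 4 of 10 and 50 for macrophages (with 2 of 6 genes that granulocytes lack), 3 of 4 and 8 for cancer cells. Shares have exact binomial, levels exact Poisson and ratios exact conditional intervals. No test between conditions was run, since each has 1 library. Background ratios over all genes and the ranking of macrophage genes used a pseudocount of 0.5 counts, other ratios none. Clusters used 3000 variable genes, 20 components and 15 neighbors at resolution 1, scaled within each library and without *Cspg4*. Doublets were scored with Scrublet but kept. Only the ratios and intervals were tested on simulated data, as Poisson sums for pericytes and macrophages without spread between tumors. The gates, thinning, reckoning of carried RNA, clusters and rankings were not simulated.

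*Cspg4* and the marker and gene lists were chosen with earlier results of these data known, and the gate limits and the naming of clusters were set after marker and *Cspg4* levels had been seen. Named genes are *Cspg4*, the 10 most like it among the 10775 ranked, and the lists. Also named are the 10 genes each way that differed most in *Cspg4*-bearing macrophages, a rule added after the data were seen. Higher genes needed at least 100 UMIs in these macrophages, and lower genes 2000 in the macrophages without *Cspg4*. Both were ranked by the smaller difference of the 2 libraries.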

Additional observations from a re-analysis of the deposited data

Results flagged for a closer look

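*Cspg4* was also counted in removed barcodes and in some cells outside the gated classes, above the level that 3 UMIs would give in granulocytes of the same library (4.75 CPM in sGC Ctr and 3.79 CPM in sGC ∆PC). Barcodes removed by the filters held 213 UMIs at 18.7 CPM in the sGC Ctr library and 136 UMIs at 5.60 CPM in the sGC ∆PC library. Macrophages with cancer RNA stood at 12.6 and 7.36 CPM, from 138 and 124 UMIs, which is 0.955 and 0.919 of what their share of macrophage and pericyte markers gives. Pericytes with cancer RNA stood at 8.53 and 13.4 CPM, from 4 and 8 UMIs. Cells that passed more than 1 host gate stood at 8.98 and 11.5 CPM, from 9 and 19 UMIs.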

How the results depend on the processing

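No paired analysis was possible because each condition has 1 library with no replicate number, and no library could be left out. Of 112 values recomputed under the alternatives, 85 stayed within the counting interval of the reported value, 27 moved out of it and 0 of the ratios whose interval excluded 0 changed sign. Thinning to 2000 UMIs took the shares of cells with a *Cspg4* UMI to 28.9% and 10.5% in pericytes and 6.68% and 3.81% in macrophages, as fewer UMIs are drawn, and the macrophage levels to 40.7 and 20.9 CPM. The thinned log2 ratio of pericytes was -1.32, with an interval that includes 0 (-2.98 to 0.13). With a cancer-cell RNA share under 10%, sGC ∆PC pericytes moved to 104 CPM and 46.7% of cells, sGC ∆PC macrophages to 27.8 CPM and 10.6%, and the log2 ratios to -0.68 in pericytes and -0.75 in macrophages; the cause was not tested. Clusters in place of gates gave 17.5% of sGC Ctr macrophages and no value for pericytes or endothelial cells alone, since their clusters also reached the cancer cell limits. The next 2 alternatives were chosen after seeing the data. Macrophages with at least 3 of the 10 genes that went with *Cspg4* gave a log2 ratio of -0.69, a value that supports nothing, since these genes were picked on *Cspg4* in the same cells. The automatic Scrublet threshold marked 562 sGC Ctr cells but 0 sGC ∆PC cells and so was not used as planned; leaving out the highest 10% of scores in each library gave -1.60 in pericytes and -0.97 in macrophages, but 0.61 in cancer cells, where clusters gave -0.05. Among fibroblasts, thinning left 2 and 3 *Cspg4* UMIs. Pericyte values rest on 80 and 23 *Cspg4* UMIs.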

Other observations

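Clusters set apart 2 further groups of cells with *Cspg4*. A cluster led by the osteoclast genes *Acp5*, *Ctsk*, *Atp6v0d2* and *Mmp9*, left unnamed by the rule for clusters, held 84 *Cspg4* UMIs in 104 sGC Ctr cells (34.1 CPM) and 20 in 309 sGC ∆PC cells (4.42 CPM). Its make-up differed: 50 sGC Ctr and 65 sGC ∆PC cells were gated macrophages, and 12 and 133 were gated cancer cells. Median depths were 15639 and 7101 UMIs, and the part of these differences was not tested. Gated osteoclast-like macrophages stood at 14.7 and 6.56 CPM. A macrophage cluster led by interferon-response genes (*Rsad2*, *Cmpk2*, *Ifit3*, *Cxcl9*) stood at 14.8 CPM in 141 sGC Ctr cells and 2.48 CPM in 179 sGC ∆PC cells, from 21 and 5 UMIs. The 2 libraries shared 131 barcode sequences, 98 of them among kept cells.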
